A study of Mus musculus with 8 samples.

Results

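To ask whether the kinase function of FAK (focal adhesion kinase) sorts accessible chromatin across all 4 SCC lines at once, the 4 libraries whose FAK carries no change in the kinase domain (FAK-WT and FAK-nls) were set against the 4 libraries that have no FAK or a kinase-dead FAK (*FAK*-/- and FAK-kd). The 24383 strongest ATAC-seq peaks of each library on chromosomes 1 to 19, X and Y, ranked by −log10 p, were merged into 40309 regions. A region belonged to the kinase-competent set when it was called in at least 3 of the 4 kinase-competent libraries and in at most 1 of the 4 kinase-lacking libraries, and to the kinase-lacking set in the reverse case. The kinase-competent set held 1256 regions (3.12% of all regions) and the kinase-lacking set 1355 regions (3.36%), 2611 regions together.

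All 4 lines came from cutaneous squamous cell carcinoma (SCC) cells with the genotype K14CreER FAKflox/flox on the FVB background, in which tumours had been raised by DMBA and TPA and which carry Ha-Ras as driver gene. FAK was deleted in culture with 4-hydroxytamoxifen, which activates a Cre driven by the keratin 14 promoter. The *FAK*-/- line, labelled as control, was a clone of these cells, and the other lines were made from it by retroviral re-expression of wild-type FAK (FAK-WT), of a nuclear localization-deficient FAK with the changes R177A, R178A, R190A, R191A, R216A and R218A (FAK-nls), or of kinase-dead FAK with the change K454R (FAK-kd). Each line gave 2 libraries, described as biological replicates without a statement that they came from separate cultures, so that p-values measure only the spread between these libraries. The lines differ in more than kinase status, since each re-expressing line carries a retroviral construct and was selected with hygromycin, FAK-nls is also impaired in nuclear localization, and the kinase activity of the lines was not measured in these data.

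FAK, the product of *Ptk2*, is a cytoplasmic tyrosine kinase of integrin adhesions, which phosphorylates itself and then binds Src, and both kinases phosphorylate adaptor proteins of the adhesion. It also acts as a scaffold independent of catalysis, and its FERM domain allows entry into the nucleus, where it can bind transcription factors. ATAC-seq marks open chromatin, because the Tn5 transposase inserts adaptors mainly where nucleosomes do not block the DNA.

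The libraries differed in peak number before the lists were made equal. Between 24383 and 53703 peaks per library lay on the chromosomes kept, and the FAK-nls libraries had the shortest lists, with 24383 and 24959 peaks against 32938 to 53703 in the other 6 libraries. The equal number therefore took 100% and 97.7% of the FAK-nls lists but 45.4% of the FAK-WT 1 list. Of 11 keratinocyte markers, the promoter of *Tfap2a* was called in all 8 libraries and those of the other 10, including *Trp63*, *Krt5*, *Krt14* and *Cdh1*, were called in no library. Of 9 fibroblast markers, *Pdgfrb* and *Col1a2* promoters were called in all 8 libraries, and the number called per library was 3 to 6. No endothelial marker promoter of 7 was called, and 0 or 1 of 9 leukocyte marker promoters was called in each library. Of the regions nearest to a fibroblast, leukocyte or endothelial list gene (19, 8 and 14 regions), 0 were members of either set, too few regions to read this against the 3.12% and 3.36% of all regions.

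AP-1 was the most frequent of the motifs sought in both sets, and the sequences shown first are leading members that hold it on each side. Each is a window of 121 bases of the + strand of GRCm38 (the mm10 build of the lists), centred on the motif, with the bases of the motif in capitals (TGACTCA or its reverse complement TGAGTCA, the site of Fos and Jun dimers). Capitals mark only the match at the centre. The first 3 belong to the kinase-competent set and the last 3 to the kinase-lacking set.
Frmpd4 (chrX:168115111-168115231): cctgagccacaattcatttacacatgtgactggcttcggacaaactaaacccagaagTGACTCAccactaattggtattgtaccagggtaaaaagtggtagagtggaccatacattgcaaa
App (chr16:85346781-85346901): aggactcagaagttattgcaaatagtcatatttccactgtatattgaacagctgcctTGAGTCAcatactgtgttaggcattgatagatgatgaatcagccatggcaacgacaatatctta
Mir135b (chr1:132199407-132199527): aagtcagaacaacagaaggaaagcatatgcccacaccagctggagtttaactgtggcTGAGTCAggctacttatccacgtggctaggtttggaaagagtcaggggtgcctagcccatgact
Wdfy1 (chr1:79701802-79701922): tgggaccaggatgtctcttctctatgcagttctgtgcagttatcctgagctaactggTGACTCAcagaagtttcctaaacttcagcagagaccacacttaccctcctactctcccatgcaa
Enpp3 (chr10:24767926-24768046): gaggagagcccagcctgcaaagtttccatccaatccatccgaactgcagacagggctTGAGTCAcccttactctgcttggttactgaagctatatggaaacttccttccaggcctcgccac
Esr1 (chr10:4984072-4984192): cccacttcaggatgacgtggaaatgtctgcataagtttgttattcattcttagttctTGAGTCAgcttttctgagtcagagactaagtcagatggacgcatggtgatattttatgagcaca
The *Frmpd4* and *Esr1* windows lie in introns, the *Mir135b* window lies in an intron at +1388 bp from a transcription start site (TSS) of that microRNA gene, and the *App*, *Wdfy1* and *Enpp3* windows are intergenic.

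The following windows, made in the same way, show other motifs to which the results refer (CRE, CTCF, CArG box, RUNX and SP/KLF) and the leading member at a protein-coding promoter on each side. *Pced1b* (kinase-competent set, intron) carries the CRE motif TGACGTCA, the site of CREB and ATF factors. *Slc43a2* (kinase-lacking set, exon) carries a CTCF motif, *Trio* (kinase-lacking set, intron) a CArG box, the site of SRF, *Xdh* (kinase-competent set, at −220 bp) the RUNX motif TGTGGTT and *Hdac11* (kinase-lacking set, at −21 bp) the SP/KLF motif GGGCGGG.
Pced1b (chr15:97346182-97346302): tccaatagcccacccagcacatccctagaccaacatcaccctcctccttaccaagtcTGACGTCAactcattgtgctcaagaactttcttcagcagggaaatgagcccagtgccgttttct
Slc43a2 (chr11:75573500-75573620): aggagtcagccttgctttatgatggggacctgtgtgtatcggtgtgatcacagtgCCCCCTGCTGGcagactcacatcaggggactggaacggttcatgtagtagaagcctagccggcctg
Trio (chr15:27771538-27771658): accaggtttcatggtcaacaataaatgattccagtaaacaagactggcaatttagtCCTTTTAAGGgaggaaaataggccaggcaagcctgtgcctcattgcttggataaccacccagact
Xdh (chr17:73918865-73918985): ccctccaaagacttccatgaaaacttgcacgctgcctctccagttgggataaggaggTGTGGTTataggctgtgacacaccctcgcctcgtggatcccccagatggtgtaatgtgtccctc
Hdac11 (chr6:91156864-91156984): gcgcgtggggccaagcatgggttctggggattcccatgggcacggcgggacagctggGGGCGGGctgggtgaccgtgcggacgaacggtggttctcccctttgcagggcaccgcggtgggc
These matches describe the windows and do not show that a factor was bound.

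The first question was whether kinase status separates the libraries better than other groupings do. The count was in the upper part of all groupings and did not exceed what several other groupings of the same libraries gave. The 8 libraries can be divided into 4 and 4 in 35 ways, and the 2611 regions of the kinase split ranked 5 among them (exact permutation over the 35 splits, one-sided p = 0.143, smallest possible 0.0286). The counts of the 35 splits ran from 1437 to 2909 with a median of 1986. In the kinase-competent direction 14 of 70 ordered splits gave at least 1256 regions (exact one-sided p = 0.2), and in the kinase-lacking direction 7 of 70 gave at least 1355 (exact one-sided p = 0.1). Without FAK-WT 1, the count of both sets was the highest of 35 splits (1493 regions, exact one-sided p = 0.0286), and without each of the other 7 libraries in turn the p was between 0.0857 and 0.229. All these p-values take libraries as units, although kinase status goes by line, and most of the splits divide a line. With all 8 libraries, the 3 splits that keep lines together ranked 1, 5 and 9 of 35.

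Of the 35 splits, 3 keep the libraries of a line together. FAK-WT with *FAK*-/- against FAK-nls with FAK-kd gave 2909 regions (1527 and 1382), the kinase split gave 2611, and FAK-WT with FAK-kd against FAK-nls with *FAK*-/- gave 2400 (1261 and 1139). The kinase split was thus the second of 3, and with 3 such splits no p below 0.333 is possible.

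**Figure D1:**
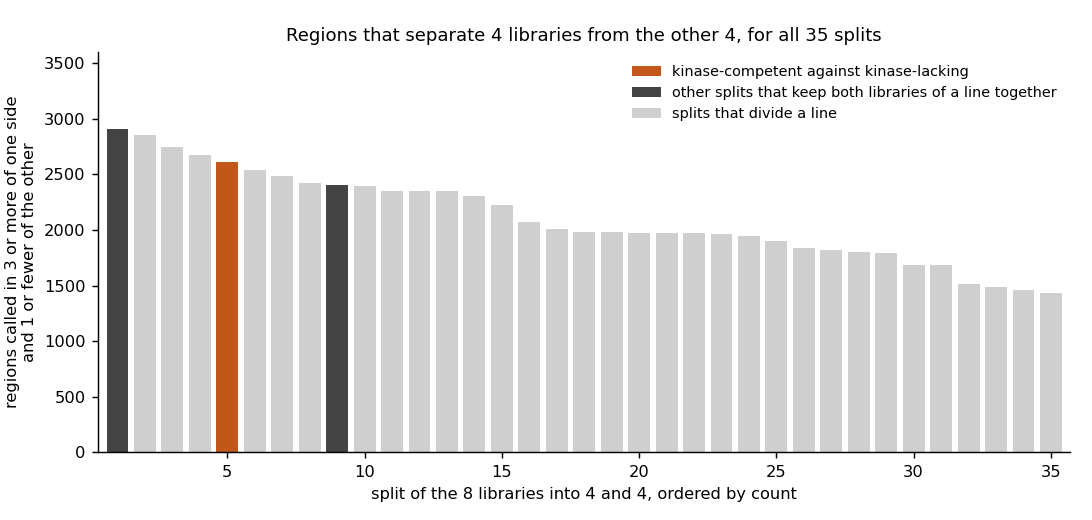
Number of regions called in at least 3 libraries of a side and at most 1 of the other, both directions added, for each of the 35 divisions of the 8 libraries into 4 and 4, ordered by count. The kinase split (2611, orange) ranks 5 and lies between the other splits that keep lines together (2909 and 2400, dark), while splits that divide a line (pale) run from 1437 to 2858.

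The members lay near the edge of the rule and near the end of the lists. In the kinase-competent set 76 regions (6.05%) were called in 4 libraries against 0, 245 in 4 against 1, 330 in 3 against 0 and 605 (48.2%) in 3 against 1. In the kinase-lacking set the corresponding numbers were 79 (5.83%), 288, 342 and 646 (47.7%). Just outside the rule, 561 regions were called 4 to 2 and 897 were called 3 to 2 in the kinase-competent direction, against 852 and 1108 in the kinase-lacking direction. The best-ranked 3 to 1 member of the kinase-competent set lay near *Gm8075*, with fold enrichments over the local background of 6.995 and 5.29 in FAK-WT, none and 4.95 in FAK-nls, 3.62 and 3.10 in *FAK*-/- and 3.27 and 4.14 in FAK-kd. The best-ranked 3 to 2 region left out, near *Gm25264*, had 8.44 and 3.78, 5.79 and 5.96, 5.63 and 3.95, and 3.52 and 8.12 in the same order. FAK-kd 2 was the kinase-lacking library with a call in the member, and *FAK*-/- 1 and FAK-kd 2 had calls in the region left out. Fold enrichments are not scaled between libraries (median of the strongest peaks 4.27 to 5.66), so that here and for the regions named further on they stand side by side as a description, with calls chosen by the rule.

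The rule works on rank and cannot take regions called in all 8 libraries, so that the strength of members is a description of the choice. The median rank of their called peaks in the libraries of the open side was 17227 to 18796 in the kinase-competent set and 17770 to 18960 in the kinase-lacking set, whereas the median rank over all regions was 12134 to 12181. The median fold enrichment of called members was 5.38 and 4.35 in the FAK-WT libraries and 3.88 and 4.06 in the FAK-nls libraries for the kinase-competent set, against 5.66, 4.73, 4.28 and 4.47 for all regions called there. For the kinase-lacking set it was 4.53 and 4.20 in *FAK*-/- and 4.12 and 4.99 in FAK-kd, against 4.91, 4.55, 4.53 and 5.44.

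Which regions were members depended on the number of peaks taken. With 15000 peaks per library 7.56% of the kinase-competent and 6.57% of the kinase-lacking members stayed in their set, and with all peaks 8.36% and 18.97%, whereas ranking by fold enrichment kept 56.1% and 58.7%. With all peaks the sets held 651 and 2406 regions.

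A missing call was often a weaker peak rather than no peak outside the FAK-nls libraries, in shares that differed between libraries. Of the kinase-competent members not called in a kinase-lacking library, 83.5% and 62.2% had a weaker peak further down the full list of *FAK*-/- 1 and 2, and 55.1% and 90.9% in FAK-kd 1 and 2. Over all regions not called in these libraries the shares were 62.7%, 41.9%, 33.7% and 67.7%. Of the kinase-lacking members not called in FAK-WT, 96.3% and 70.4% had such a weaker peak (80.8% and 52.7% over all regions), but in FAK-nls, whose lists were used whole or nearly so, 0% and 3.04% had. In the full lists 19 kinase-competent members (1.51%) had no peak in any kinase-lacking library, and 21 kinase-lacking members (1.55%) had none in any kinase-competent library. In the FAK-nls libraries list length and accessibility cannot be told apart.

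**Figure D2:**
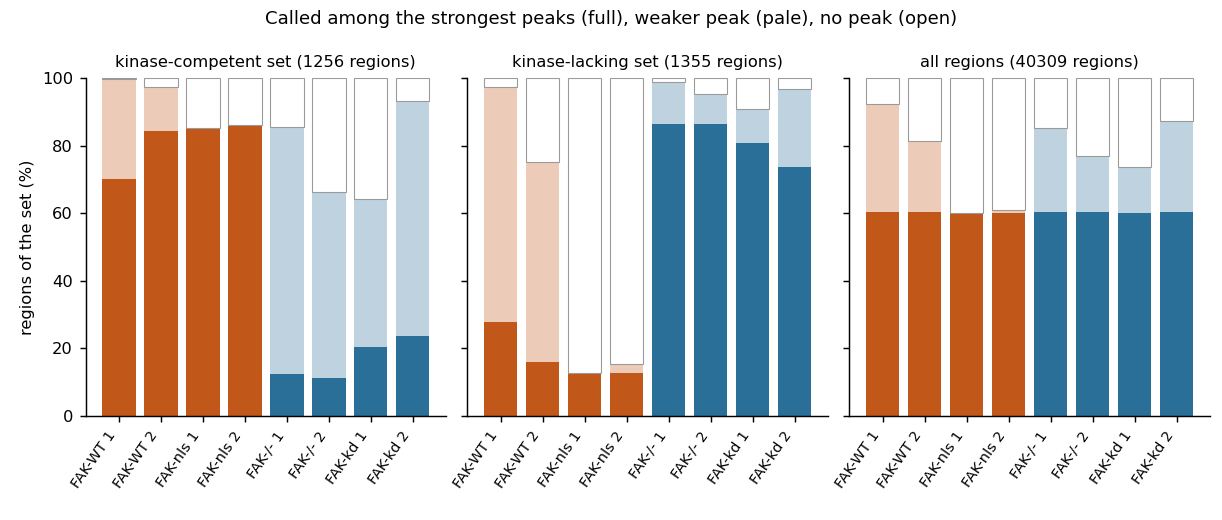
Share of regions in each library that were called among the 24383 strongest peaks (full colour), had only a weaker peak in the full list (pale) or had no peak (open), for both sets and for all 40309 regions; orange marks kinase-competent and blue kinase-lacking libraries. The calls chose the sets, and the panels show that uncalled members mostly had weaker peaks, except in the FAK-nls libraries, where 84.7% and 87.2% of the kinase-lacking set had no peak.

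The next question was whether regions chosen on a kinase-competent and a kinase-lacking line were called more often in the remaining line of the same kinase side than in that of the opposite side. The choices gave values of both signs. The 1388 regions called in both FAK-WT libraries and neither *FAK*-/- library were called in 41.4% and 42.1% of cases in FAK-nls and in 39.9% and 46.9% in FAK-kd, a difference of −1.66 percentage points. The 1249 regions called in FAK-WT and not in FAK-kd were called in 34.1% and 37.6% in FAK-nls and in 43.2% and 40.03% in *FAK*-/- (−5.76 points), so that here both libraries of the opposite side lay above both of the same side. The 1834 regions called in FAK-nls and not in *FAK*-/- were called in 32.6% and 42.3% in FAK-WT and in 41.8% and 37.8% in FAK-kd (−2.40 points).

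Choices made in the reverse direction gave values of both signs. Regions called in *FAK*-/- and not in FAK-WT (1333) were called in 46.7% and 39.1% in FAK-kd and in 40.3% and 42.1% in FAK-nls (1.69 points). Regions called in *FAK*-/- and not in FAK-nls (2044) were called in 54.3% and 49.2% in FAK-kd and in 58.7% and 51.5% in FAK-WT (−3.35 points). Across all 8 choices the difference between the same and the opposite side ran from −5.76 to 1.69 points and was positive in 3, with a mean of −1.29. The mean turned to 0.115 with all peaks and to 0.226 with 15000 peaks per library, each with 4 of 8 choices positive, and to −4.36 when peaks were ranked by fold enrichment, with 1 of 8. For 7 of the 8 choices the values of the 2 lines overlapped. With 2 libraries against 2 no p below 0.333 is possible, and none is given.

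**Figure D3:**
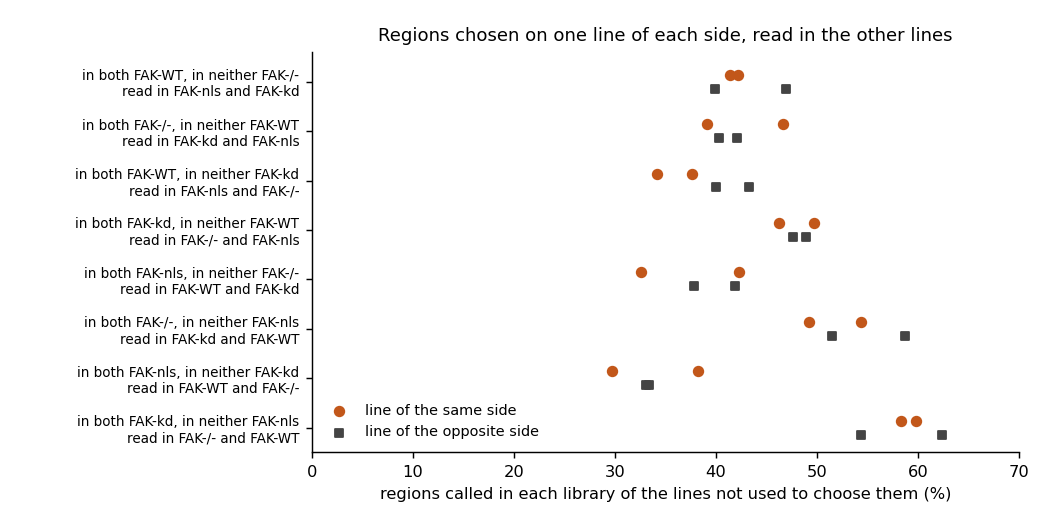
Regions called in both libraries of one line and neither of another, read in the 2 lines not used to choose them; each point is the percentage of those regions called in 1 library, circles for the line on the same kinase side as the line where the regions were called and squares for the line on the opposite side. Circles and squares interleave in all choices but that of FAK-WT against FAK-kd, where both squares (43.2% and 40.03%) lie right of both circles (34.1% and 37.6%).

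In the other replicate of the same lines, own-side libraries called the chosen regions more often than other-side libraries did. The 796 regions called in both kinase-competent libraries numbered 1 and neither kinase-lacking library numbered 1 were called in 54.6% in FAK-WT 2 and 57.3% in FAK-nls 2, against 32.9% in *FAK*-/- 2 and 48.9% in FAK-kd 2. Over all regions the shares called in these libraries were 60.3%, 60.05%, 60.2% and 60.3%, above each of these values. All regions include those called in all 8 libraries, which the choice cannot take. Over the 4 such choices (both directions and both replicate numbers) the difference between own and other side was 14.7 to 18.3 percentage points. Of the regions, 8.16% to 9.55% showed the full pattern again, for which no share over all regions is given. The other splits that keep lines together gave differences of 14.6 to 23.6 points, and the 4 values of the kinase split lay within this range.

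The overlap of the lists of the strongest 24383 peaks was not larger within the kinase sides. The Jaccard index (shared over total covered bases) averaged 0.472 between FAK-WT and FAK-nls, the 2 kinase-competent lines, which was the lowest of the 6 pairs of lines. It was 0.575 between *FAK*-/- and FAK-kd, but also 0.571 between FAK-WT and *FAK*-/- and 0.575 between FAK-WT and FAK-kd. FAK-nls gave 0.487 with *FAK*-/- and 0.497 with FAK-kd. The mean over pairs of the same side minus the mean over pairs of opposite sides was −0.00883 for the kinase split, against 0.00680 and 0.00203 for the other splits that keep lines together, the lowest of 3. Without either FAK-WT library in turn the value became positive (0.0281 without FAK-WT 1 and 0.0155 without FAK-WT 2).

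Measures taken on each library's 24383 strongest peaks, which do not depend on the choice of members, were then compared between the sides. The RUNX motif TGTGGTT, bound by the RUNX factors that act in epithelial and blood cells, was the only one of 13 measures in which all 4 kinase-competent libraries lay above all 4 kinase-lacking ones. It stood in the central 500 bp of 13.5% and 13.4% of peaks in FAK-WT 1 and 2 and of 13.4% and 13.5% in FAK-nls 1 and 2, against 13.3% and 12.9% in *FAK*-/- and 13.2% and 13.02% in FAK-kd. The means were 13.4% ± 0.0625 (SD, n = 4) and 13.1% ± 0.155 (SD, n = 4), a difference of 0.342 percentage points with an exact permutation p of 0.0286 (two-sided), the smallest that 4 against 4 can give. Adjusted over the 13 measures (Benjamini-Hochberg) the p was 0.248, so the difference did not pass the correction. These p-values take libraries as units, although kinase status goes by line. With 2 lines a side and lines kept together, no exact permutation p below 0.333 is possible. Alternatives for this motif were chosen after the data were seen. The difference fell to 0.108 points with peaks ranked by fold enrichment (exact permutation p = 0.571) and to 0.115 in 200 bp windows (p = 0.286, exact). It fell to 0.172 with all peaks (p = 0.314, exact) and to 0.195 with 15000 peaks (p = 0.229, exact). On autosomes only it was 0.348 (exact permutation p = 0.0286), and outside promoters it rose to 0.708 (exact permutation p = 0.0571).

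Other motifs of factors downstream of growth signals did not separate the sides. AP-1 motifs stood in 41.6% and 40.02% of peaks in FAK-WT, 37.9% and 39.0% in FAK-nls, 40.8% and 40.3% in *FAK*-/- and 39.2% and 39.0% in FAK-kd, a difference between sides of −0.191 points (exact permutation p = 0.8). The values of the sides overlapped, and FAK-nls held both of the lowest. The CRE motif was present in 1.58% and 1.69% of peaks in FAK-WT but in 1.92% and 1.88% in FAK-nls, with 1.62% to 1.76% in the kinase-lacking libraries (difference 0.0656 points, exact permutation p = 0.486). By line mean the 2 kinase-competent lines thus lay at opposite ends of this measure (1.63% and 1.90%, against 1.71% in *FAK*-/- and 1.69% in FAK-kd). By library, FAK-WT 2 lay within the kinase-lacking range. The ETS motif (AGGAAGT or CGGAAGT) differed by 0.148 points (exact permutation p = 0.486).

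For CTCF, the insulator protein that anchors chromatin loops, the share was 2.88% and 2.95% in FAK-WT, 2.49% in both FAK-nls libraries, 3.09% and 2.93% in *FAK*-/- and 2.54% and 3.01% in FAK-kd (difference −0.194 points, exact permutation p = 0.2). The promoter share, with promoters taken from 500 bp before to 2000 bp after a TSS, was 37.1% and 39.6%, 41.9% and 41.6%, 38.3% and 39.1%, and 41.2% and 39.7% in the same order (difference 0.497 points, exact permutation p = 0.714). The CArG box was at 2.27% ± 0.0400 (SD, n = 4) against 2.36% ± 0.0497 (SD, n = 4), and the share of peaks over 50 kb from a TSS at 7.12% ± 0.352 against 6.54% ± 0.242, each with an exact permutation p of 0.0571 and an adjusted p of 0.248. None of the 13 measures passed the threshold of 0.05 after adjustment, and 1 had an unadjusted p below 0.05.

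**Figure D4:**
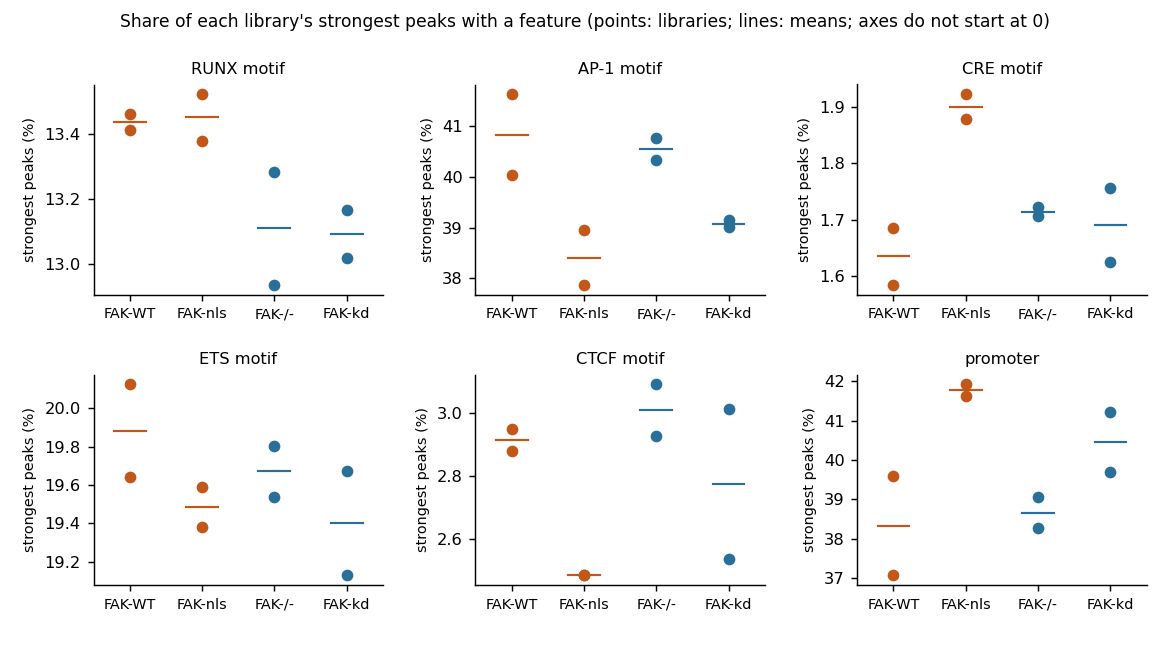
Percentage of each library's 24383 strongest peaks with a motif in the central 500 bp or with the centre in a promoter; points are the 2 libraries of a line and short lines their mean, with vertical axes that do not start at 0. For the RUNX motif the kinase-competent libraries (orange, lowest 13.4%) lie above the kinase-lacking ones (blue, highest 13.3%), whereas for AP-1, CRE, CTCF and promoters the FAK-WT and FAK-nls points lie apart.

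The member sets differed from each other in sequence and position, as a description of the regions chosen. The CTCF motif was in 28 of 1256 kinase-competent members (2.23%, 95% Wilson interval 1.55 to 3.20) and in 81 of 1355 kinase-lacking members (5.98%, 4.84 to 7.37), against 3.96% of all regions. The TEAD motif (ACATTCC or GCATTCC), the site of the partners of YAP and TAZ, was in 17.4% and 13.2%, against 14.9% of all regions. The RUNX motif was in 16.5% and 13.8%, against 13.95%. The AP-1 motif was in 45.4% and 44.1%, against 38.9% of all regions, while its shuffled form ACTCAGT was in 9.87%, 10.3% and 10.2%. The AP-1 difference, kinase-competent minus kinase-lacking, depended on the setting. It was 11.1 percentage points for members called 4 to 0, 10.97 with all peaks and −2.50 in 200 bp windows. All regions include 13172 called in all 8 libraries, which the rule cannot take. Among the 8310 regions called in 3 to 5 libraries, members included, the AP-1 share was 44.04%, close to both sets, and the CTCF, TEAD and RUNX shares were 3.92%, 16.04% and 15.3%. These intervals cover counting error only, since regions are not replicates of a line.

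Promoters made up 28.2% of the kinase-competent and 20.5% of the kinase-lacking members, against 31.7% of all regions, and the SP/KLF motif of GC-rich promoters followed with 16.1%, 10.7% and 18.9%. Regions called in 3 to 5 libraries had 24.6% promoters and 14.02% SP/KLF motifs, so that on both measures the kinase-competent set lay above this background and the kinase-lacking set below it. Outside promoters the AP-1 share was 56.9% in the kinase-competent set, 48.3% in the kinase-lacking set and 50.3% in all regions, and the CTCF share 2.44%, 6.41% and 4.79%. Regions called in 3 to 5 libraries had 52.1% and 4.29% there. Within promoters, where only all regions served as background, the order of the sets in AP-1 share was the reverse (16.1% and 27.7%, against 14.2%). CRE motifs were in 5.37% of kinase-competent, 2.16% of kinase-lacking and 2.98% of all promoter regions. The order of the promoter and SP/KLF shares of the sets was the reverse among members called 4 to 0 and when all peaks were used (promoter difference −0.766 and −7.78 percentage points, SP/KLF −0.916 and −4.54), while the CTCF share was lower and the TEAD share higher in the kinase-competent set in each of the 4 alternatives tried for them. Members over 50 kb from any TSS made up 11.2% of the kinase-competent and 7.45% of the kinase-lacking set, against 8.13% of all regions. The median width was 665 bp and 537 bp, against 674 bp.

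The same features in the other splits that keep lines together were ordered by the presence of FAK-nls for CTCF, promoters, SP/KLF, CRE and width. The CTCF share was 1.59% and 1.67% in the other sets that contain FAK-nls (with FAK-kd and with *FAK*-/-), and 5.11% and 4.52% in the sets opposite to them. The promoter share was 41.9% and 27.0% in the sets with FAK-nls and 12.97% and 18.2% in the sets opposite. In the same order the SP/KLF share was 24.1% and 17.6% against 7.53% and 9.91%, the CRE share 1.66% and 1.58% against 0.982% and 0.238%, and the median width 731.5 bp and 643 bp against 548 bp and 572 bp. The lower CTCF share and the higher promoter, SP/KLF and CRE shares and width of the kinase-competent set were thus found wherever FAK-nls was on the open side, and the short FAK-nls lists move with them, whose part in the features was not tested. The RUNX share and the share over 50 kb from a TSS were higher in each split in the set with FAK-WT. With FAK-WT and *FAK*-/- open they were 15.5% and 8.64% against 13.02% and 7.53% in the set opposite, and with FAK-WT and FAK-kd open 16.6% and 12.8% against 14.6% and 7.11%. The AP-1 share was likewise higher in each split in the set with FAK-WT. It was 53.5% against 32.9% with *FAK*-/-, 49.9% against 41.3% with FAK-kd, and 45.4% against 44.1% in the kinase split. The TEAD shares of the 6 sets did not order by FAK-nls: 17.6% with FAK-WT and *FAK*-/-, 13.2% with FAK-nls and FAK-kd, 15.3% with FAK-WT and FAK-kd and 16.9% with FAK-nls and *FAK*-/-.

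**Figure D5:**
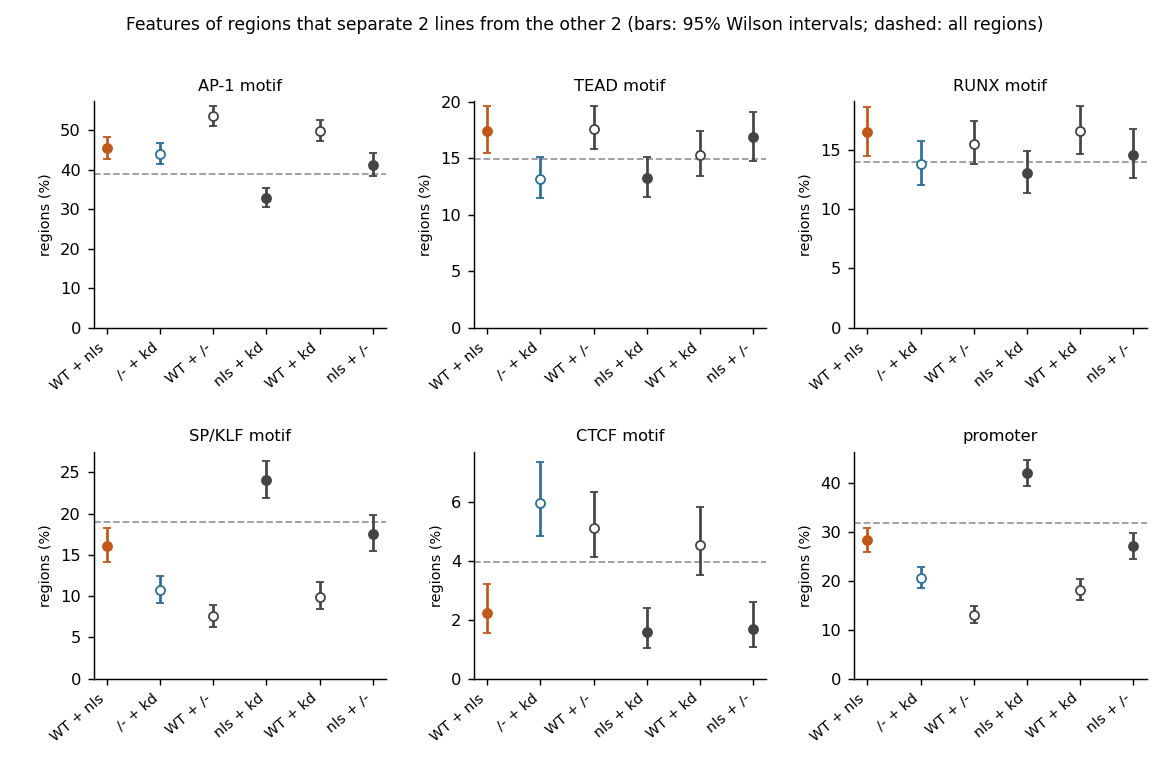
Percentage of regions with a motif in the central 500 bp, or in promoters, for the 6 sets given by the 3 splits that keep lines together (orange, kinase-competent set; blue, kinase-lacking set; dark, the other splits); filled points are sets open in FAK-nls, bars are 95% Wilson intervals and dashed lines are all 40309 regions. For CTCF the 3 filled points lie between 1.59% and 2.23% and the 3 hollow points between 4.52% and 5.98%.

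The kinase-competent members called 4 to 0 with the best worst rank lay mostly away from promoters. So did most regions, since promoters made up 31.7% of all regions and 28.2% of the kinase-competent set. The region chr6:148318430-148319185 near the pseudogene *Rps4l* led, with fold enrichments of 6.53 and 6.18 in FAK-WT and 5.02 and 4.68 in FAK-nls, and weaker peaks of 3.94, 3.42 and 4.47 in *FAK*-/- 2, FAK-kd 1 and FAK-kd 2. The region of *Frmpd4*, a scaffold protein of neuronal synapses, had 7.57, 5.29, 5.73 and 5.20 in the kinase-competent libraries, a weaker peak of 4.17 in FAK-kd 2 and no peak in the other 3 kinase-lacking libraries.

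The region at −173059 bp from *App*, which encodes the amyloid precursor protein, had 5.39, 5.51, 4.97 and 4.52 in the kinase-competent libraries and 3.68, 3.44, 3.62 and 4.12 in the kinase-lacking ones. That in an intron of *Man1c1*, a mannosidase of glycoprotein maturation, had 5.40, 4.56, 4.31 and 4.67 against 3.73, 3.70, 2.94 and 3.77. The region at *Mir135b*, a microRNA gene raised in several carcinomas, had 5.20, 4.47, 4.05 and 4.09 and, among the kinase-lacking libraries, a weaker peak of 3.71 in FAK-kd 2 alone. The other 5 of the first 10 were near *Gm15784*, *Gm47913*, *Xdh*, *Gm47479* and *Gm7814*.

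The leading kinase-lacking members lacked peaks in FAK-nls and had weaker ones in FAK-WT. At *Wdfy1*, which encodes an adaptor of Toll-like receptor signalling, the fold enrichments were 4.66 and 4.93 in *FAK*-/- and 4.31 and 4.89 in FAK-kd, against 3.31 and 3.54 in FAK-WT. The region at *Enpp3*, an ectonucleotidase that degrades extracellular nucleotides, had 5.07, 4.38, 4.58 and 5.80 and no peak in any kinase-competent list. The intronic region of *Esr1*, the oestrogen receptor, had 5.04, 5.65, 4.59 and 6.12, against 5.20 and 3.94 in FAK-WT. Both FAK-WT peaks there lay outside the strongest 24383 of their libraries.

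The other leading members of this set were near *Gm26486*, *Tmem164*, *Gm26578*, *Gm26662*, *Gm49107*, *Trio* and *Gm36843*. In all 10, both FAK-nls libraries had no peak, which the choice and the short lists almost fix. In 9 of the 10 both FAK-WT libraries had a weaker peak.

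Each set held 9 regions called 4 to 0 in a promoter and nearest to a protein-coding gene, of which 8 a side are named. On the kinase-competent side these were *Xdh* (xanthine dehydrogenase, which forms uric acid), *Spata1*, *Fkbp8* (a mitochondrial chaperone that restrains apoptosis), *Ccr3* (the eotaxin receptor), *Rdh11* (a retinol dehydrogenase), *Atp5g3* (a subunit of mitochondrial ATP synthase), *Pigh* (of GPI anchor synthesis) and *Stx12* (a SNARE of endosomes). The *Xdh* promoter had 6.83, 4.92, 4.11 and 4.44 in FAK-WT and FAK-nls, against 3.21 in *FAK*-/- 1 and 4.47 in FAK-kd 2. The *Stx12* promoter had 4.71, 4.49, 4.83 and 5.46 against 3.93, 3.42, 3.59 and 4.32, where the 4 kinase-lacking peaks lay outside the strongest 24383.

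On the kinase-lacking side the nearest genes were *Hdac11* (a histone deacetylase), *Dcaf5* (a substrate receptor of a ubiquitin ligase), *Kcnab1* (a potassium channel subunit), *Pkp1* (a desmosomal plakophilin of keratinocytes), *Hexa* (a lysosomal hexosaminidase), *Ccdc73*, *Slc1a5* (the glutamine transporter) and *Aspa* (aspartoacylase). The regions near *Hexa* and *Slc1a5* lay at −1679 bp and −554 bp from the nearest TSS. They are outside the promoter window of that TSS and count as promoter regions through another TSS. The *Hdac11* promoter had 4.42, 4.02, 4.58 and 5.24 in *FAK*-/- and FAK-kd, against 4.82 and 2.98 in FAK-WT. The *Pkp1* promoter had 4.72, 3.95, 4.35 and 6.52 against 3.49 in FAK-WT 1 and no peak in the other 3 kinase-competent libraries. In all 8 regions both FAK-nls libraries had no peak, which follows almost from the choice, because the FAK-nls lists were used whole or nearly so.

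Few genes drew several members. By nearest TSS, 1198 of 21048 genes with a region (5.69%) had a kinase-competent member and 1280 (6.08%) a kinase-lacking one, and 62 genes had both, which is 5.18% of the former and 4.84% of the latter. *Mocs2*, an enzyme of molybdenum cofactor synthesis, had 3 of 6 regions in the kinase-competent set and *Plxna2*, a semaphorin receptor, 3 of 11. *Anks1b* had 2 of 9, and *Cacna1e* and *Csnk1d* had 2 of 2 each, the alphabetically first of the genes with 2. In the kinase-lacking set *Afap1*, an actin filament protein that binds Src, had 3 of 8 regions, *Trio* and *Kalrn*, related guanine nucleotide exchange factors, 3 of 15 and 3 of 19, and *Fars2* and *Hpcal1* 3 of 7 and 3 of 8.

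All 3 *Trio* regions had no peak in FAK-nls, whose lists, used whole or nearly so, hold almost no weaker peaks. The *Trio* region that is also among the leading ones had fold enrichments of 5.29, 4.94, 4.34 and 5.05 in *FAK*-/- and FAK-kd and 3.98 and 3.63 in FAK-WT. The second, at 10953 bp, had 3.40 and 4.10 in *FAK*-/- and 3.24 and 4.62 in FAK-kd, against 4.12 and 2.80 in FAK-WT. The third, at 1515 bp, had 3.44, 4.11, 3.61 and 5.23, against 4.67 and 3.63. In the last 2, FAK-WT 1 was also called and *FAK*-/- 1 was not.

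Among genes that act with FAK at adhesions, members were on both sides. Of 25 FAK and Src signalling genes with a region, 1 had a kinase-competent member and 4 a kinase-lacking one. Subunits of PI3-kinase were among them on opposite sides. An intron of *Pik3r1*, the regulatory subunit, had 4.77, 4.36, 4.32 and 3.91 in FAK-WT and FAK-nls and 3.13, 3.62, 3.68 and 4.85 in *FAK*-/- and FAK-kd. An intron of *Pik3ca*, the catalytic subunit, had 5.18, 4.40, 4.17 and 3.78 in the kinase-lacking libraries and 3.42, 3.62, 3.63 and none in the kinase-competent ones. The kinase-lacking set also held regions at *Ptpn1*, a tyrosine phosphatase, and *Nedd9*, a docking protein that FAK binds.

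Of 28 focal adhesion adaptor genes, 3 had a kinase-competent and 7 a kinase-lacking member, and by regions this was 1.95% and 5.19% of 154 regions beside 3.12% and 3.36% of all. An exon of *Vcl*, vinculin, had 5.34, 6.35, 5.40 and 7.09 in *FAK*-/- and FAK-kd, against 4.49 and 3.61 in FAK-WT, none in FAK-nls 1 and 4.78 in FAK-nls 2. It was called in the 4 kinase-lacking libraries and in FAK-nls 2. A region at 799 bp from a TSS of *Tns3*, a tensin, had 5.15, 4.74, 5.06 and 4.49 and no peak in any kinase-competent list. *Pdlim5* and *Tln2*, a talin, had a member on each side.

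For integrins and laminins 3 of 28 genes had a kinase-competent member (*Itgb6*, *Lamc1* and *Lamc3*) and 2 a kinase-lacking one, among them *Lama5*.

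Downstream kinase pathways had members in small numbers. In the ERK pathway 5 of 36 genes had a kinase-competent member and 3 a kinase-lacking one. *Dusp10* and *Dusp4* were on the former side and *Dusp1* on the latter, and the *Dusp* genes encode phosphatases of MAP kinases. The JNK and p38 pathway had 0 and 3 of 22 (*Map2k3*, *Map3k4* and *Mapkapk3*), and the YAP, TAZ and TEAD list 0 and 3 of 21 (*Amotl1*, *Lats2* and *Tead1*). At *Tead1* the values were 4.07, 4.00, 4.11 and 5.64 in *FAK*-/- and FAK-kd, against 3.80 in FAK-WT 1 and no peak in the other 3 libraries.

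The EGF receptor list had 1 and 4 of 15 genes, or 1.75% and 8.77% of its 57 regions. *Areg*, the ligand amphiregulin, had 5.46, 5.09, 5.60 and 4.49 in the kinase-lacking libraries and 4.51 and 4.01 in FAK-WT, with no peak in FAK-nls. *Nrg1*, another ligand, had 5.94, 6.07, 3.94 and 5.74 against 5.87 and 4.17 in FAK-WT. *Lrig1*, which restrains EGF receptors, had 1 kinase-competent and 2 kinase-lacking members, and its relative *Lrig3* a kinase-lacking one. The TGF-beta list had 4 and 6 of 31 genes, with *Tgfbr3*, a co-receptor, on the kinase-competent side (2 regions) and *Ltbp4*, *Inhba* and *Inhbb* on the other, while *Smad3* and *Ltbp1*, named after their values were seen, had members on both.

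Among transcription factors, the AP-1 list had 2 kinase-competent genes of 19 (*Jdp2* and *Mafk*) and 1 kinase-lacking (*Bach2*), and the ETS list had 1 and 0 of 16, the promoter of *Elk4*. The p53 list had 2 and 2 of 21, with *Bbc3*, which encodes the killer protein PUMA, on the kinase-competent side, *Trp53* on the kinase-lacking side and *Sesn1* on both. Keratinocyte genes had 1 and 1 of 17 (*Krt8* and *Klf4*), genes of the epithelial-mesenchymal transition 1 and 0 of 19 (*Tcf4*), and MHC class I genes 0 and 0 of 9. Most of these lists hold more regions per gene than all genes do, which raises their shares by gene over the 5.69% and 6.08% of all genes, so the shares by region are given beside the 3.12% and 3.36% of all regions. They were 1.09% and 4.35% of 92 regions for FAK and Src signalling, 3.19% and 2.13% of 94 for integrins and laminins, and 6.19% and 3.09% of 97 for the ERK pathway. They were 0% and 5.26% of 57 for JNK and p38, 0% and 3.90% of 77 for the YAP, TAZ and TEAD list, and 5.21% and 8.33% of 96 for TGF-beta. The AP-1, ETS, p53, keratinocyte and epithelial-mesenchymal transition lists had 0 to 2 members a side on 32 to 56 regions each. The lists are described without a test, on few members each.

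Of cytokine genes, the IL-1 family had 0 and 1 of 10 genes and the chemokine list 0 and 2 of 18 (*Ccl8* and *Ackr3*), over 30 and 31 regions, too few to read a count of 0 against the 3.12% of all regions. The member of the IL-1 family lay at −12902 bp from *Il33*, an alarmin cytokine that also acts in the nucleus (chr19:29911907-29912517, intergenic). It was called in all 4 kinase-lacking libraries, with 5.40, 5.01, 4.44 and 5.21, and in FAK-WT 1 with 5.17, whereas FAK-WT 2 and FAK-nls had no peak. Within the gene and 10 kb upstream, none of the 3 regions of *Il33* was a member, and the region at −3206 bp had fold enrichments of 6.32 and 4.01 in FAK-WT and 5.88 in *FAK*-/- 1 and no peak in the other 5 libraries.

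The other genes looked up had no member within the gene and 10 kb upstream. *Ptk2* itself had 9 regions, 4 of them called in all 8 libraries, and peaks there do not check the labels, since the constructs are retroviral and it was not tested whether any peak lies in the deleted part. The *Ptk2* region at −6 bp from a TSS had 5.81 and 5.54 in FAK-WT, 3.93 and 5.32 in FAK-nls, 5.02 and 5.00 in *FAK*-/- and 6.04 and 5.67 in FAK-kd. A region at another TSS of *Ptk2* (−12 bp) was called in 5 libraries, with weaker peaks in FAK-WT 1 and FAK-kd 2 and no peak in FAK-nls 2. *Ptk2b*, the paralogue PYK2, had 5 regions with 3 called in all 8 libraries. *Jun*, *Fosl2*, *Ccl5* and *Vcam1* each had 1 region called in all 8 libraries, *Fosl1*, *Cxcl10* and *Cdkn1a* had regions in some libraries, and *Igfbp3* had none.

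Members were spread over the genome. They made up 1.96% to 4.28% of the regions of each autosome and of X in the kinase-competent set and 2.104% to 5.02% in the kinase-lacking set, with the highest share of the latter on chromosome 19. Of kinase-competent members 13.4% had another member of their set within 50 kb and 7.40% a member of the other set, and for kinase-lacking members the shares were 14.2% and 7.08%. Of all regions 11.9% had a kinase-competent and 14.6% a kinase-lacking member that near.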

How the data were processed

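ATAC-seq of 8 libraries of mouse SCC cells was used as the peak lists deposited by the authors, who aligned reads to mm10 with the bcbio pipeline and called broad peaks in each library with MACS2 (version 2.1.1 in the submitters' processing notes). Per the file headers, each peak has a pileup (coverage signal), a −log10 p-value and −log10 q-value, and a fold enrichment (ratio to the local background). The deposited signal is not stated to be scaled between libraries, so values were ranked within a library. Read depth was not used here. A peak list gives no counts, so calls were compared and differential accessibility was not tested on reads.

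The strongest 24383 peaks per library were merged at an overlap of 1 bp. Regions were assigned by their centre to the nearest TSS of GENCODE M21, and motifs were sought on both strands as exact matches in the central 500 bp. Sequences are from the RefSeq copy of GRCm38. CTCF, p53 half-site and CArG box matches allow alternative bases. Side counts were tested by exact permutation over libraries, and library shares likewise with Benjamini-Hochberg adjustment over 13 measures, in Python 3 with numpy and scipy. The steps were tested on simulated lists. No peak was identical in position and p between libraries.

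Named regions were the looked-up genes, for each side the 10 best-ranked 4 to 0 regions, up to 8 such promoters, the 5 genes with most members and up to 4 genes for each of 20 lists, and the regions at the edge of the rule. Results for 1 list and for some genes are not reported here. The members and lists were chosen with earlier results of these data known. Alternatives were all peaks, 15000 peaks, ranking by fold enrichment, other widths, windows, promoters and chromosomes, a replicate block and leaving out libraries.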

Additional observations from a re-analysis of the deposited data

Results flagged for a closer look

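The mean GC content of the strongest peaks in the 4 kinase-competent libraries held a library far from the others. FAK-WT 1 had 52.3% GC, and FAK-WT 2, FAK-nls 1 and FAK-nls 2 had 53.1%, 53.2% and 53.1%, so that the gap of FAK-WT 1 to its neighbour was 0.860 of the whole range, above Dixon's critical value at 95% for 4 libraries. FAK-WT 1 also had the longest list, with 53703 peaks. It was the single such case in 26 tests (13 measures on each side), of which chance alone marks about 1 in 20.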

How the results depend on the processing

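With all peaks the kinase-competent set held 651 regions and the kinase-lacking set 2406, and the 4 against 0 rule left 76, 79 and 155 (both). Leaving out each library in turn gave 497 to 703, 553 to 797 and 1090 to 1493 regions, where the rule asked for all 3 libraries of the reduced side or for none of them, which is stricter for both sets. The exact one-sided p for both sets, again with libraries as units, was 0.0667 to 0.514 over the other alternatives. Without both FAK-nls libraries, an alternative chosen after seeing the data, there were 2551 regions, with both FAK-WT libraries or neither called, the highest count of 15 splits (exact one-sided p = 0.0667, the smallest possible).

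The Jaccard difference ran from −0.0274 to 0.0281 without 1 library, and was positive without FAK-WT 1 or FAK-WT 2 (0.0155). The promoter difference ran from −0.126 to 1.495 without 1 library, negative without FAK-nls 1 or 2 (−0.0291), and was 1.16 with 15000 peaks, 1.86 ranked by fold enrichment and 2.41 with all peaks. The AP-1 difference ran from −0.860 to 0.393 without 1 library, positive without FAK-nls 1, FAK-nls 2 (0.0304) or *FAK*-/- 1 (0.125). It was positive with all peaks (0.538) and outside promoters (0.320) and −1.15 in 200 bp windows. Outside promoters the CRE and ETS differences became −0.0627 and −0.280. The RUNX difference was positive in all 15 alternatives tried, 0.108 to 0.708, with exact permutation p of 0.0286 to 0.571. The held-out line mean became 0.115 with all peaks and 0.226 with 15000.

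Among member sets, the AP-1 difference of 1.32 points became −2.50 in 200 bp windows, 11.1 for 4 against 0, 10.97 with all peaks and 8.59 outside promoters. The CTCF difference was −1.76 with all peaks. SP/KLF became −0.916, −4.54 and −2.36 for 4 against 0, all peaks and outside promoters, and the promoter share −0.766 and −7.78 for 4 against 0 and all peaks. The cause was not tested.

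The calls of same-numbered libraries of different lines did not deviate together from the mean of their line (correlations −0.0819 to 0.0221 over 40309 regions). The labels do not say whether same-numbered libraries were prepared together, and these correlations cannot decide it. With a replicate block the 2611 regions ranked 4 of 18 splits (exact one-sided p = 0.222). The RUNX difference, still 0.342 points, then had an exact permutation p of 0.0556 (adjusted 0.241). With the block no measure had an unadjusted p below 0.05, and no call after adjustment changed. Read depth was not used, and its part in the list lengths was not tested.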
